A study of Mus musculus with 6 samples.

Results

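The urea cycle and amino acid catabolism genes examined here were 39 named enzymes and mitochondrial carriers, listed by their place in these routes. The list was chosen with earlier results of these data known. Its genes were sought by symbol among the 55357 genes of the count table. All 39 were found, all are annotated as protein-coding, and all passed the filter on low counts that left 14433 genes for testing. The RNA came from livers of male C57BL6/J wild-type mice, 8 to 9 weeks old, that received either 2.5% Tween-80 as vehicle or esculetin, a coumarin derivative, by oral gavage for 7 days. Both groups ate a control diet with 10% of kcal from fat for 4 days and then a high-fat diet with 60% of kcal from fat for 3 days, so a group without the high-fat diet was not part of the comparison. There were 3 vehicle and 3 esculetin libraries, and each library pooled the livers of 2 mice. The sample annotations give both 90 and 180 mg/kg/d for the esculetin libraries, and the group is therefore named here without a dose. The comparison asks how hepatic transcripts for nitrogen disposal and amino acid breakdown differed between esculetin and vehicle during a short high-fat feeding.

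The liver breaks down most amino acids by removing their nitrogen and passing their carbon skeletons to glucose, ketone bodies or the citric acid cycle. Transaminases such as those encoded by Got1 and Gpt collect the amino groups on glutamate and aspartate, and the urea cycle, which begins in mitochondria with carbamoyl phosphate synthetase (Cps1) and ends in the cytosol, turns ammonia and aspartate nitrogen into urea. Each amino acid also has its own route, and many of these enzymes are most abundant in periportal hepatocytes and respond to fasting, glucagon, glucocorticoids and protein intake.

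Total counts per library lay between 27957713 and 34920922, with the totals of all 3 esculetin libraries above those of all 3 vehicle libraries. Values are given below as CPM, the share of a library's counts scaled to a common size with edgeR's TMM factors, which ranged from 0.979 to 1.02. The lowest count of any of the 39 genes in any library was 182. The labelled tissue was checked with markers. The summed level of 6 hepatocyte markers was 93715 to 97832 CPM in the vehicle libraries and 88605 to 96763 CPM in the esculetin libraries, whereas Kupffer cell, stellate cell, endothelial and cholangiocyte lists of 6 genes each stayed at or under 428.4 CPM. Of 6 pancreatic acinar markers, 4 were at 0 in every library. All 6 Kupffer cell markers had a fold below 1, with 0 at an unadjusted p under 0.05. Of the 5 cholangiocyte markers tested, Spp1 was lower (0.596-fold) at an unadjusted p under 0.05, and the other 4 had a fold above 1. The 2 acinar markers tested had a fold below 1. Cela2a was lower at an unadjusted p under 0.05 (0.521-fold), at a mean of only 0.672 CPM with vehicle. By this rule 5.32% of all genes tested were lower and 6.53% higher. All 4 red blood cell markers had a fold above 1, Hba-a2 at an unadjusted p under 0.05 (1.72-fold), and they summed to 38.98 to 64.1 CPM in the vehicle libraries and 38.2 to 102.7 CPM in the esculetin libraries. The part of these cells in the results below was not tested. In RNA from whole liver, fewer cells of a type and less RNA per cell cannot be told apart. P-values measure only the spread between these pooled libraries.

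Across the 39 genes, 11 were higher in the esculetin libraries and 0 were lower at an unadjusted p under 0.05 (edgeR's quasi-likelihood test). These 11 genes made up 28.2% of the list, where 6.53% of all genes tested were higher and 5.32% were lower by the same rule. The list was chosen with earlier results of these data known, so these shares are set side by side without a test. The differences were small, with folds from 1.13 to 1.35, and 0 of the 39 genes passed the stricter rule of an unadjusted p under 0.05 with a fold change over 1.5, which 3.13% of all genes tested passed (1.37% higher and 1.76% lower). After Benjamini-Hochberg adjustment over all genes tested, 0 of the 39 genes and 6 of 14433 genes (0.0416%) had an adjusted p under 0.05, and the smallest adjusted p of a listed gene was 0.196, for Aass. With DESeq2 in place of edgeR, the adjusted p was under 0.05 for 193 of 14433 genes, of which Aass and Got1 were in the list. All but Sdsl of the 39 genes are abundant. Among the 4448 genes with a mean of at least 25 CPM, which include 38 of the 39, 12.7% were higher and 5.51% lower at an unadjusted p under 0.05. Of these 4448 genes, 34 passed the stricter rule upward and 28 downward.

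Log2 fold changes were above 0 for 31 of the 39 genes, against 48.5% of all genes tested and 55% of those with at least 25 CPM. Their median was 0.13, against -0.0080 for all genes and 0.019 for the abundant genes. In 13 genes every esculetin library lay above every vehicle library, and in 0 every one lay below. Among all genes tested, 9.2% were separated upward in this way and 8.24% downward, and among the abundant ones 16.3% were separated upward. The plot of changes by route sets out these differences with their standard errors, which ran from 0.069 to 0.15 on the log2 scale. Vehicle replicate 1 was the highest of the 3 vehicle libraries for 26 of the 39 genes. Without it, 15 genes were higher at an unadjusted p under 0.05, as were 5.91% of all genes tested in that fit. Without vehicle replicate 2 there were 5 (4.84% of all genes), without vehicle replicate 3 there were 7 (6.28%) and without esculetin replicate 2 there were 6 (5.36%).

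**Figure D1:**
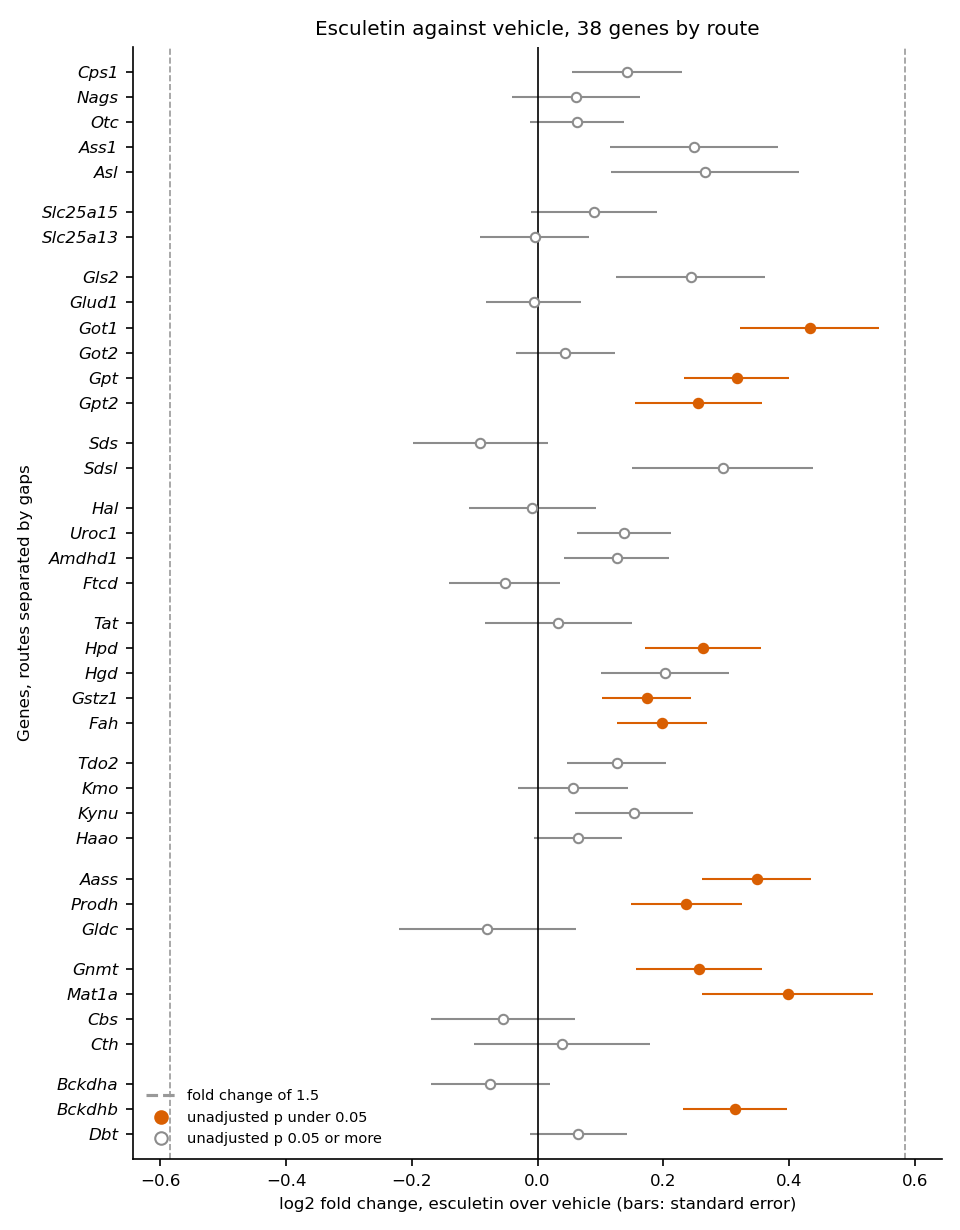
Log2 fold change of 38 of the 39 genes, esculetin over vehicle, with its standard error as a horizontal bar and genes grouped by route on the vertical axis. The 11 filled points have an unadjusted p under 0.05, all lie to the right of 0, and none of the 38 points reaches the dashed lines at a fold change of 1.5.

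Summed over the 39 genes, transcripts made up 31212, 28807 and 28368 CPM in the vehicle libraries and 32963, 34165 and 31439 CPM in the esculetin libraries, or 2.95% and 3.29% of the normalized counts on average. All 3 esculetin sums lay above all 3 vehicle sums, although the distance between the highest vehicle sum and the lowest esculetin sum was small. In terms of level, the list spanned a wide range. Per kilobase of the canonical transcript, the vehicle means were high for Tat (tyrosine aminotransferase, 1212 CPM per kb), Ass1 (argininosuccinate synthase, 1173), Hpd (1050) and Cps1 (944). They were lowest for Nags (N-acetylglutamate synthase, 13.7 CPM per kb), Gldc (glycine decarboxylase, 12.4), Bckdhb (11.6) and Sdsl (6.08). Neighbours in that order had vehicle ranges that did not overlap in 8 of 38 cases, so the order among most neighbours is not resolved. From Tat, the highest, down to Tdo2, each overlapped with the next. When lengths were taken over all annotated exons, Tat remained the highest and Sdsl the lowest, and the vehicle mean of Cps1 (855 CPM per kb) was above that of Ass1 (553).

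**Figure D2:**
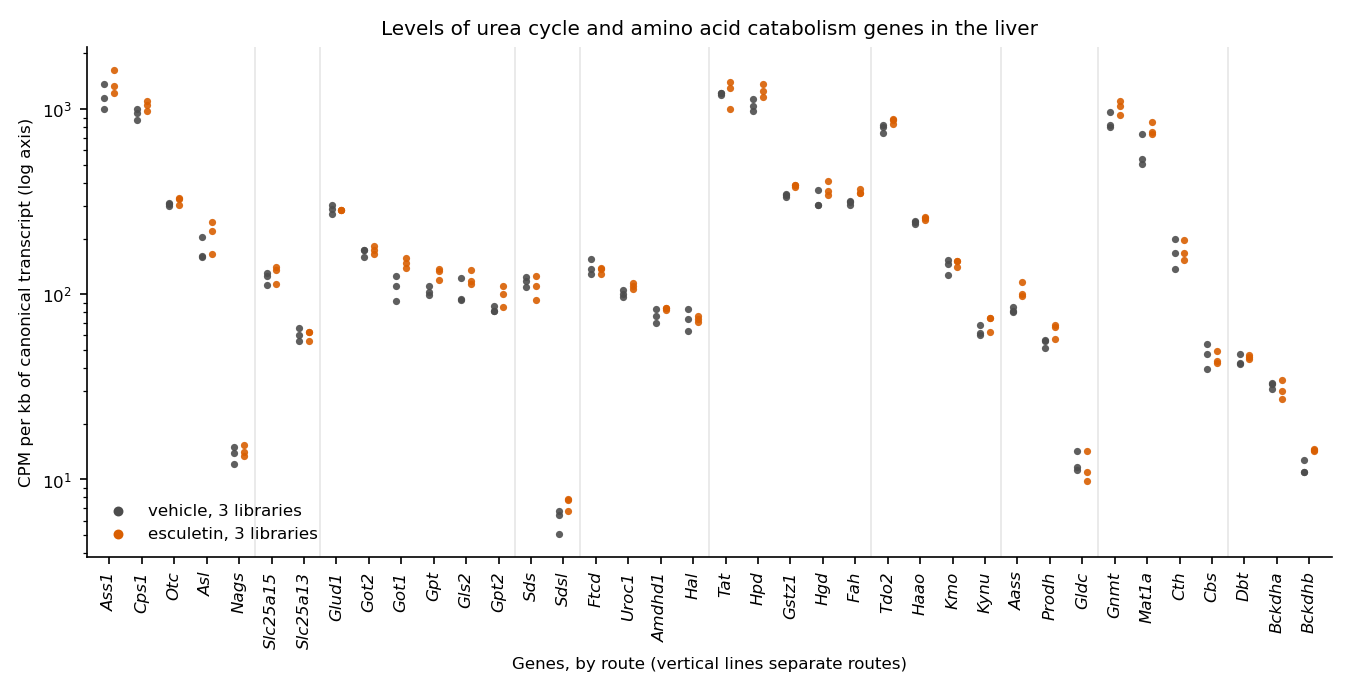
Level of 38 of the 39 genes in each library, as CPM per kb of the canonical transcript on a log axis, with genes grouped by route and ordered by level within a route. Each dot is 1 library, with 3 vehicle dots in grey and 3 esculetin dots in orange per gene, and the distance between genes is far larger than that between groups, from 6.08 CPM per kb for Sdsl to 1212 for Tat in the vehicle means.

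The transaminases move amino groups onto and off glutamate, and in edgeR's fit of all 6 libraries Got1 had the largest fold of the list. Over the alternatives the log2 fold change reached 0.58 for Mat1a and 0.54 for Got1, so Got1 was not first in all of them. Of the 6 genes of glutamine, glutamate and transamination, 3 were higher at an unadjusted p under 0.05. By this rule 6.53% of all genes tested and 12.7% of those with at least 25 CPM were higher. Folds are given as esculetin over vehicle with their 95% confidence interval in brackets. Got1, which encodes the cytosolic aspartate aminotransferase, had 261, 192 and 230.1 CPM in vehicle replicates 1, 2 and 3 and 327, 307 and 288 CPM in esculetin replicates 1, 2 and 3. Every esculetin library lay above every vehicle library, and the difference was 1.35-fold (95% confidence interval 1.14 to 1.60, log2 standard error 0.11, unadjusted p = 0.00314, adjusted p = 0.203, edgeR quasi-likelihood test with Benjamini-Hochberg adjustment). Its mitochondrial counterpart Got2 was 1.03-fold (0.912 to 1.17). Gpt, the alanine aminotransferase known as a serum marker of liver injury when it leaks from cells, had 183, 207 and 192 CPM with vehicle and 253, 249 and 222 CPM with esculetin. These values did not overlap between groups either, and Gpt was 1.25-fold (95% confidence interval 1.09 to 1.42, log2 standard error 0.084, unadjusted p = 0.00382, edgeR adjusted p = 0.206). The second alanine aminotransferase gene, Gpt2, whose product is mitochondrial, had 453, 425 and 425 CPM with vehicle and 582, 527 and 446 CPM with esculetin. Its lowest esculetin library fell within the vehicle range, and the difference was 1.19-fold (95% confidence interval 1.02 to 1.40, log2 standard error 0.10, unadjusted p = 0.0306, edgeR adjusted p = 0.366). The unadjusted p of Gpt2 was under 0.05 in 11 of 15 alternative fits.

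Of the other 3 genes of this group, Gls2, the liver glutaminase that releases ammonia from glutamine, had 319.8, 246 and 243 CPM with vehicle and 307, 354 and 297 CPM with esculetin. The groups overlapped through vehicle replicate 1, at 1.18-fold (0.984 to 1.42). The unadjusted p was under 0.05 in 2 of 15 alternative fits, without that library and with no filter on low counts. Over all alternatives the log2 fold change of Gls2 ran from 0.16 to 0.38. Glud1, the glutamate dehydrogenase that frees ammonia from glutamate in mitochondria, was 0.996-fold (0.886 to 1.12). Within a library, the log2 ratio of Got1 to Got2 averaged -0.92 ± 0.24 (SD) in the vehicle libraries and -0.52 ± 0.082 in the esculetin libraries, without overlap. That of Gpt to Gpt2 averaged -1.17 ± 0.14 and -1.10 ± 0.098, with overlap. By an exact two-sided permutation test the p was 0.1 for the Got pair, which is the smallest that 3 against 3 libraries allow, and 0.6 for the Gpt pair. Adjusted over the 7 gene pairs compared, these were 0.175 and 0.7. Got1 and Got2, like Gpt and Gpt2, encode related proteins, and how reads shared between related genes were counted is not given in the sources used here.

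**Figure D3:**
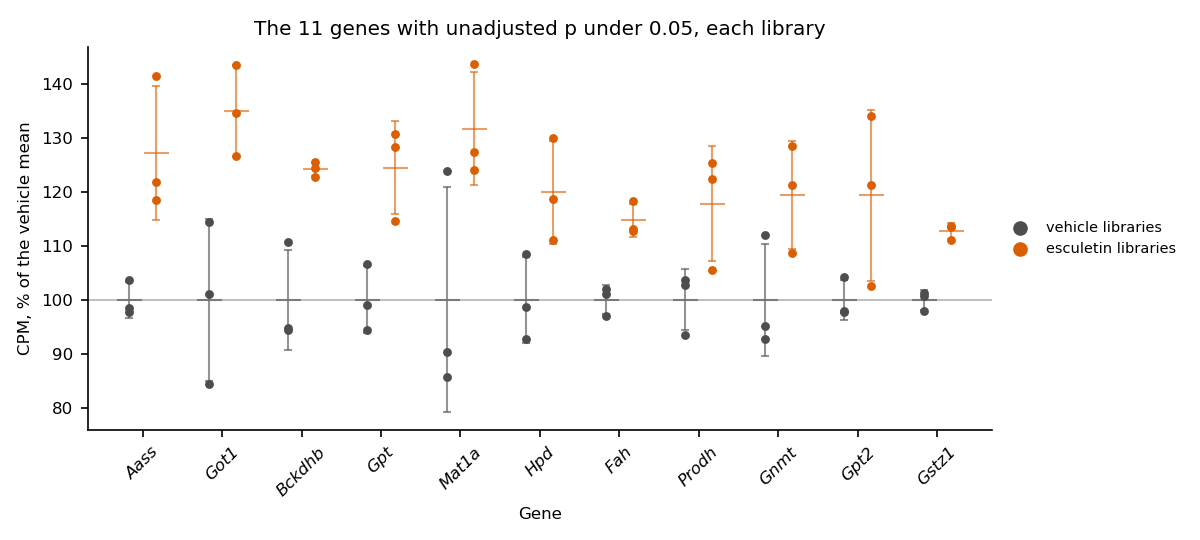
CPM of the 11 genes with an unadjusted p under 0.05 in each library, as a percentage of the gene's vehicle mean. Each dot is 1 library, horizontal bars are group means and vertical bars are 1 SD over 3 libraries; esculetin dots lie above all vehicle dots for 9 genes, whereas Gpt2 and Gnmt overlap.

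None of the 6 urea cycle enzymes differed at an unadjusted p under 0.05, although all 6 log2 fold changes were above 0, between 0.060 and 0.27. At an unadjusted p under 0.05, 6.53% of all genes tested were higher and 5.32% lower. Cps1, the entry enzyme, had 5577, 4862 and 5297 CPM with vehicle and 5409, 6128 and 5827 CPM with esculetin. Vehicle replicate 1 lay above the lowest esculetin library, and the difference was 1.10-fold (0.963 to 1.26). Nags, which makes the activator that Cps1 requires, had 30.4, 28.2 and 24.5 CPM with vehicle and 28.4, 31.1 and 27.2 CPM with esculetin. The libraries were interleaved, at 1.04-fold (0.890 to 1.22).

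Otc, the mitochondrial ornithine transcarbamylase and the only X-linked gene of the list, had 707, 732 and 728 CPM with vehicle and 713, 771 and 779 CPM with esculetin. Esculetin replicate 1 lay inside the vehicle range, and the difference was 1.04-fold (0.931 to 1.17). Ass1, which joins citrulline to aspartate, had 2400.4, 2025 and 1770.0 CPM with vehicle and 2351, 2859 and 2149 CPM with esculetin. Asl, which splits the product into arginine and fumarate, had 542, 427 and 424 CPM with vehicle and 588, 651 and 437 CPM with esculetin. In both, esculetin replicate 2 was the highest and vehicle replicate 1 overlapped the esculetin range, and the differences were 1.19-fold (0.965 to 1.46) for Ass1 and 1.20-fold (0.955 to 1.52) for Asl. The unadjusted p of both genes was under 0.05 in 3 of 15 alternative fits. These were the fits without vehicle replicate 1, without esculetin replicate 3 and with no filter on low counts. Over all alternatives the log2 fold change ran from 0.12 to 0.37 for Ass1 and from 0.14 to 0.42 for Asl.

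The carriers that link the mitochondrial and cytosolic arms of the cycle were also within the spread between libraries. Slc25a15, the ornithine and citrulline exchanger, was 1.06-fold (0.912 to 1.24). Slc25a13, the liver aspartate and glutamate carrier citrin, was 0.997-fold (0.872 to 1.14). Its log2 ratio to Slc25a12, the related carrier of other tissues, averaged 4.06 ± 0.33 (SD) and 3.95 ± 0.19 in the vehicle and esculetin libraries, with overlap (exact permutation p = 0.6, 0.7 after adjustment over 7 pairs). Summed over the 6 enzymes, the level was 11029.5, 9779 and 9929.6 CPM in the vehicle libraries and 11057, 12339 and 10854 CPM in the esculetin libraries, or 1.02% and 1.14% of the normalized counts on average. Glul, which encodes glutamine synthetase of pericentral hepatocytes and competes with the urea cycle for ammonia, was 0.903-fold (0.790 to 1.03). The log2 ratio of Cps1 to Glul averaged 2.35 ± 0.17 (SD) in the vehicle libraries and 2.64 ± 0.091 in the esculetin libraries, and that of Gls2 to Glul averaged -1.94 ± 0.22 and -1.54 ± 0.047. Both ratios were without overlap between the groups, with an exact permutation p of 0.1 each, the smallest possible, and 0.175 after adjustment over 7 pairs.

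**Figure D4:**
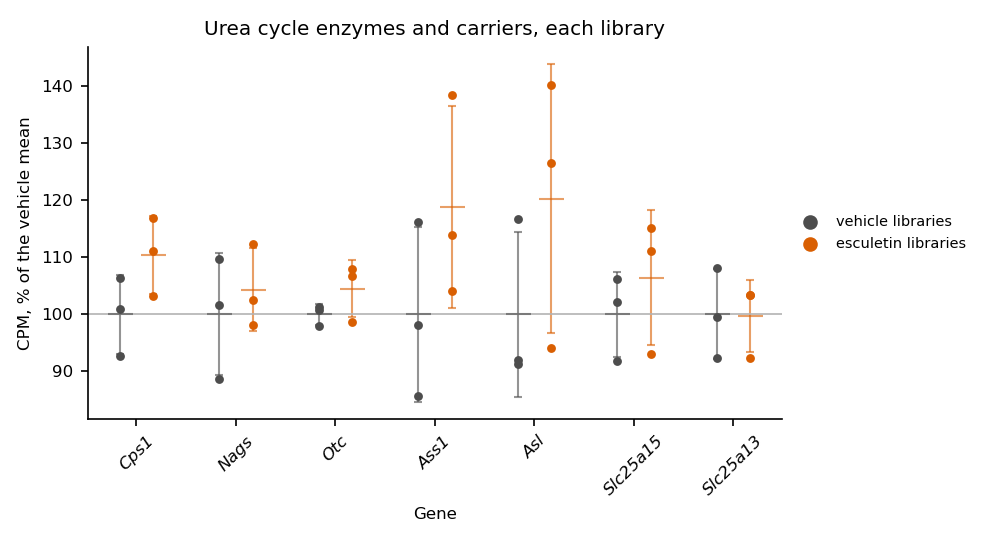
CPM of 5 urea cycle enzymes and the 2 carriers in each library, as a percentage of the gene's vehicle mean. Each dot is 1 library, horizontal bars are group means and vertical bars are 1 SD over 3 libraries; the vehicle and esculetin dots overlap for all 7 genes.

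In tyrosine breakdown, 3 of 5 genes (Hpd, Gstz1 and Fah) were higher at an unadjusted p under 0.05, where 6.53% of all genes tested and 12.7% of the abundant ones were. In the same 3 every esculetin library lay above every vehicle library, as in 9.2% of all genes and 16.3% of the abundant ones. Without vehicle replicate 2, and likewise without esculetin replicate 2, only Fah of the 3 had an unadjusted p under 0.05. The unadjusted p was under 0.05 in 12 of 15 alternative fits for Hpd, 9 for Gstz1 and 13 for Fah. Hpd, the 4-hydroxyphenylpyruvate dioxygenase that carries out the second step, had 1631, 1481 and 1394 CPM with vehicle and 1669, 1954 and 1783 CPM with esculetin. The groups were separated by a narrow gap between vehicle replicate 1 and esculetin replicate 1, and Hpd was 1.20-fold (95% confidence interval 1.04 to 1.38, log2 standard error 0.093, unadjusted p = 0.0181, edgeR adjusted p = 0.312). Gstz1, the maleylacetoacetate isomerase, had 771, 749 and 775 CPM with vehicle and 869.9, 850.4 and 868 CPM with esculetin. Its libraries were tight within each group and did not overlap, at 1.13-fold (95% confidence interval 1.01 to 1.26, log2 standard error 0.07, unadjusted p = 0.0337, edgeR adjusted p = 0.375). Fah, the fumarylacetoacetase that completes the route, had 481, 506 and 501 CPM with vehicle and 587, 559 and 561 CPM with esculetin. Here too all esculetin values were above all vehicle values, at 1.15-fold (95% confidence interval 1.03 to 1.28, log2 standard error 0.072, unadjusted p = 0.0202, edgeR adjusted p = 0.321).

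The first enzyme of that route, Tat, which is a classical target of glucocorticoids, had 2919.5, 2893 and 2845 CPM with vehicle and 3352, 3112 and 2396 CPM with esculetin. Esculetin replicate 3 was the lowest and esculetin replicate 1 the highest of the 6 libraries, and the difference was 1.02-fold (0.853 to 1.23). Hgd, the homogentisate dioxygenase, had 623, 517 and 519 CPM with vehicle and 589, 701 and 619.8 CPM with esculetin. Vehicle replicate 1 stood above the lower esculetin libraries, and the difference was 1.15-fold (0.983 to 1.35). Exons of Gstz1 overlap those of Pomt2, Tmed8 and Gm6566 on the opposite strand. The mean counts were 25809 for Gstz1 and at most 578.2 for each of these, and as the counting is not stated to have used the strand, reads of such pairs cannot be told apart.

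Of the 3 genes of lysine, proline and glycine breakdown, Aass and Prodh were higher at an unadjusted p under 0.05. By this rule 6.53% of all genes tested and 12.7% of those with at least 25 CPM were higher. In both, every esculetin library lay above every vehicle library, as in 9.2% of all genes and 16.3% of the abundant ones. The unadjusted p was under 0.05 in 15 of 15 alternative fits for Aass and in 12 for Prodh. Aass, the aminoadipate semialdehyde synthase that performs the first steps of lysine breakdown in mitochondria, had 318, 299 and 302 CPM with vehicle and 363, 374 and 434 CPM with esculetin. All esculetin values exceeded all vehicle values, with esculetin replicate 3 the highest, and Aass was 1.27-fold (95% confidence interval 1.11 to 1.46, log2 standard error 0.087, unadjusted p = 0.00266, edgeR adjusted p = 0.196). Prodh, the proline dehydrogenase, had 135, 122 and 134 CPM with vehicle and 159.7, 164 and 138 CPM with esculetin. Esculetin replicate 3 was just above the vehicle range, and Prodh was 1.18-fold (95% confidence interval 1.03 to 1.35, log2 standard error 0.088, unadjusted p = 0.0234, edgeR adjusted p = 0.341). Prodh shares exon bases with Dgcr6 on the opposite strand, and the mean counts were 4506 for Prodh and 766.5 for Dgcr6, so the part of shared reads in this difference cannot be told. Gldc of the glycine cleavage system was 0.946-fold (0.760 to 1.18).

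In methionine breakdown, 2 of 4 genes (Mat1a and Gnmt) were higher at an unadjusted p under 0.05, against 6.53% of all genes tested and 12.7% of those with at least 25 CPM. Neither gene had an unadjusted p under 0.05 in the fit without vehicle replicate 2 or in the fit without vehicle replicate 3. Mat1a, the liver methionine adenosyltransferase that makes S-adenosylmethionine, had 2627, 1913 and 1817 CPM with vehicle and 3045, 2702 and 2628 CPM with esculetin. Vehicle replicate 1 was far above the other vehicle libraries and almost level with esculetin replicate 3, and the difference was 1.32-fold (95% confidence interval 1.07 to 1.63, log2 standard error 0.14, unadjusted p = 0.0159, edgeR adjusted p = 0.301). Without vehicle replicate 1, the edgeR adjusted p of Mat1a was 0.0501, and over all alternatives it ran from 0.00237 to 0.617. The unadjusted p was under 0.05 in 12 of 15 alternative fits for Mat1a and in 9 for Gnmt. Gnmt, which consumes S-adenosylmethionine by methylating glycine, had 1009.7, 858 and 837 CPM with vehicle and 979, 1159 and 1093 CPM with esculetin. Vehicle replicate 1 lay inside the esculetin range, and Gnmt was 1.19-fold (95% confidence interval 1.02 to 1.39, log2 standard error 0.10, unadjusted p = 0.0281, edgeR adjusted p = 0.358). Its exons overlap those of Pex6 on the opposite strand, with mean counts of 31481 for Gnmt and 1980.3 for Pex6. Cbs and Cth, which carry homocysteine sulfur to cysteine, were 0.962-fold (0.806 to 1.15) for Cbs and 1.03-fold (0.827 to 1.28) for Cth.

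The list holds 3 component genes of the branched-chain keto acid dehydrogenase complex, which commits leucine, isoleucine and valine to breakdown. Of these, 1 (Bckdhb) was higher at an unadjusted p under 0.05. By the same rule 6.53% of all genes tested were higher, as were 12.7% of those with at least 25 CPM. Bckdhb, the E1 beta subunit, had 63.8, 54.4 and 54.6 CPM with vehicle and 71.6, 72.3 and 70.7 CPM with esculetin. The esculetin libraries lay close together and above the vehicle libraries, at 1.24-fold (95% confidence interval 1.09 to 1.41, log2 standard error 0.083, unadjusted p = 0.00375, edgeR adjusted p = 0.206). Bckdha, the E1 alpha partner, was 0.949-fold (0.820 to 1.10), and Dbt, the E2 subunit, was 1.05-fold (0.929 to 1.18). Dld, the E3 component that other complexes also use, is outside the list and was 0.999-fold (0.894 to 1.12). Whether the subunits differed from one another in their response was not tested. The log2 ratio of Bckdk, the kinase that inactivates the complex, to Bckdha averaged -2.87 ± 0.062 (SD) and -3.05 ± 0.51 in the vehicle and esculetin libraries (exact permutation p = 0.7, 0.7 after adjustment over 7 pairs).

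The tryptophan, histidine and serine routes held 0 genes with an unadjusted p under 0.05 among their 10. By this rule 6.53% of all genes tested were higher and 5.32% lower, and 12.7% and 5.51% of those with at least 25 CPM. In 4 of their 10 genes every esculetin library lay above every vehicle library, as in 9.2% of all genes tested and 16.3% of those with at least 25 CPM. Tdo2, the tryptophan dioxygenase that opens the kynurenine pathway, had 2668, 2867 and 2951 CPM with vehicle and 3162, 2962 and 3135 CPM with esculetin. Esculetin replicate 2 exceeded the highest vehicle library by little, and the difference was 1.09-fold (0.965 to 1.23). Haao, which makes the precursor of quinolinate, had 377, 372 and 363 CPM with vehicle and 392, 390.1 and 379.8 CPM with esculetin. Its groups were close but apart, at 1.05-fold (0.939 to 1.16). Kynu (kynureninase) was 1.11-fold (0.962 to 1.29), and Kmo (kynurenine monooxygenase) was 1.04-fold (0.907 to 1.19). Kmo shares exon bases with Fh1 on the opposite strand, and the mean counts were 12477 for Kmo and 6360 for Fh1.

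In histidine breakdown, Uroc1 (urocanate hydratase) had 377, 359.7 and 348 CPM with vehicle and 380.2, 399 and 414 CPM with esculetin. The gap between the groups was narrow, and the difference was 1.10-fold (0.979 to 1.24). Hal, the histidine ammonia-lyase that starts the route, was 0.994-fold (0.850 to 1.16). Amdhd1, the imidazolonepropionase, was 1.09-fold (0.959 to 1.24), and Ftcd, the formiminotransferase that ends the route on tetrahydrofolate, was 0.964-fold (0.842 to 1.11).

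Sds, the serine dehydratase of gluconeogenic liver, was 0.939-fold (0.795 to 1.11), while the low-level related gene Sdsl had 8.75, 8.38 and 6.64 CPM with vehicle and 10.1, 10.3 and 8.84 CPM with esculetin. Sdsl did not overlap between groups, at 1.23-fold (0.981 to 1.53). The log2 ratio of Sds to Sdsl averaged 4.18 ± 0.12 (SD) in the vehicle libraries and 3.78 ± 0.12 in the esculetin libraries, without overlap (exact permutation p = 0.1, the smallest possible, and 0.175 after adjustment over 7 pairs). Sds shares exon bases with Plbd2 and Gm15690 on the opposite strand, whose mean counts were 1698 and 328.5 beside 4365 for Sds.

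The 4 genes whose unadjusted p was under 0.05 in edgeR's fit and in each of 15 alternative fits were Got1, Gpt, Aass and Bckdhb, that is 4 of 39. Of all genes tested, 2.56% were higher in every one of these fits, as were 5.76% of those with at least 25 CPM. Got1 (ENSMUSG00000025190) lies on chromosome 19 of GRCm39 from 43488188 to 43513674 on the minus strand, Gpt (ENSMUSG00000022546) on chromosome 15 from 76579616 to 76583890 on the plus strand, Aass (ENSMUSG00000029695) on chromosome 6 from 23072172 to 23132991 on the minus strand, and Bckdhb (ENSMUSG00000032263) on chromosome 9 from 83807130 to 84011081 on the plus strand. Their promoters are shown because these are the genes whose difference held over the alternatives. Each is the 250 bases before the start of the canonical transcript, 5′ to 3′ on the gene's strand in GRCm39, with matches to the searched motifs in capitals. The windows of Got1 and Gpt lie within the annotated gene. The letters searched, on both strands, were TTGCNNAA for C/EBP factors, GTAAACA for FOXO factors, TGACG for the core of the cAMP response element and CCAAT for the CCAAT box.
Got1, chr19:43513070-43513319, minus strand: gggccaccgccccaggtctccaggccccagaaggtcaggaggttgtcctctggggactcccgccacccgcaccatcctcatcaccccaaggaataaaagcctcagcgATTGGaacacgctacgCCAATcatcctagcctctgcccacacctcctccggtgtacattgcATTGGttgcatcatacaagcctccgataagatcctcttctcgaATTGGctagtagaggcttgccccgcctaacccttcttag
Gpt, chr15:76580625-76580874, plus strand: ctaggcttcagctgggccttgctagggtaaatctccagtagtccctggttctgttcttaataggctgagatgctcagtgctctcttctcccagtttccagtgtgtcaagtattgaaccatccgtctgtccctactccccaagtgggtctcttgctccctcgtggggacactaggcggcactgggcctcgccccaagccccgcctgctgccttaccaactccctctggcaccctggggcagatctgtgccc
Aass, chr6:23132992-23133241, minus strand: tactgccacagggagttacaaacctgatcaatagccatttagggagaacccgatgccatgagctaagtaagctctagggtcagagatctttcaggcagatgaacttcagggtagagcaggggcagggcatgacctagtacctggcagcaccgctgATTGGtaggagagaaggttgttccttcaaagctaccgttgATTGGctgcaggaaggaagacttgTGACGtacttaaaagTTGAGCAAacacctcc
Bckdhb, chr9:83806880-83807129, plus strand: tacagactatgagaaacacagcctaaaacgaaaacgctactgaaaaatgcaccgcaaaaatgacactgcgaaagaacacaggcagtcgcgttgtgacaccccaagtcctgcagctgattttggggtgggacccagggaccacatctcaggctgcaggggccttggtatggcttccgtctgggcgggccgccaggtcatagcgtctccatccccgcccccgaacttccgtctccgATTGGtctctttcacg

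In these windows the Got1 promoter held 4 matches to the CCAAT box, the Bckdhb promoter 1 and the Gpt promoter 0 matches to any of the 4 motifs. Aass held 1 match to the C/EBP letters, 1 to the cAMP response element core and 2 to the CCAAT box. Across all 39 promoters the C/EBP letters occurred in 4, against 8.32% of the 12590 promoters of the protein-coding genes tested, and the FOXO letters occurred in 1, against 2.37%. The cAMP response element core occurred in 6, against 22.8% of all promoters, and the CCAAT box in 20, against 36.1%. Any overlap between matches was counted for each motif on its own. A match is a string of letters and not a measured binding site.

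The other genes of the same routes were described from a list of 84, of which 77 had enough counts to be tested. This list too was chosen with earlier results of these data known. Of the 77, 50 had a fold above 1 and 27 a fold below 1. At an unadjusted p under 0.05, 16 of the 77 were higher (20.8%) and 3 were lower in the esculetin libraries. By the same rule 6.53% of all genes tested were higher and 5.32% lower, and 12.7% and 5.51% of those with at least 25 CPM. Those higher in tetrahydrobiopterin supply were Gch1 (1.28-fold), the rate-limiting enzyme of its synthesis, Gchfr (1.27-fold), the feedback regulator of that enzyme, and Pcbd1 (1.16-fold), a dehydratase that recycles it. Next to Aass and Prodh, the later enzymes Gcdh (1.13-fold) of lysine breakdown and Aldh4a1 (1.26-fold) of proline breakdown were higher, as was Prodh2 (1.15-fold), which acts on hydroxyproline. Next to Mat1a and Gnmt, Ahcy (1.20-fold), which hydrolyses S-adenosylhomocysteine, was higher. So were the cysteine dioxygenase Cdo1 (1.14-fold) and the sulfide oxidase Sqor (1.36-fold), whose edgeR adjusted p of 0.132 was the smallest of the 77.

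Downstream of the branched-chain complex, Ivd (1.15-fold) and Mccc2 (1.12-fold) of leucine breakdown, Hibadh (1.21-fold) and Aldh6a1 (1.13-fold) of valine breakdown and Pccb (1.14-fold), a subunit of propionyl-CoA carboxylase, were higher. These were 5 of the 16 branched-chain genes tested outside the 39, of which 4 had a fold below 1. Afmid, the kynurenine formamidase, had a fold of 1.35, and Agxt, the alanine-glyoxylate aminotransferase, one of 1.16. The lower genes were asparagine synthetase Asns (0.392-fold), cysteine sulfinate decarboxylase Csad (0.631-fold) and the aminoadipate and kynurenine aminotransferase Aadat (0.747-fold). Asns and Csad also passed the fold threshold of 1.5, which 1.76% of all genes tested passed downward, and Asns was at a low level, with 1.77, 2.06 and 3.28 CPM with vehicle and 1.49, 0.577 and 0.717 CPM with esculetin. Csad had 98.7, 56.0 and 45.5 CPM with vehicle and 38.6, 44.3 and 43.4 CPM with esculetin, and without vehicle replicate 1, the highest of its libraries, it was 0.829-fold and no longer passed the fold threshold. None of the 77 had an adjusted p under 0.05 by edgeR with Benjamini-Hochberg adjustment.

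**Figure D5:**
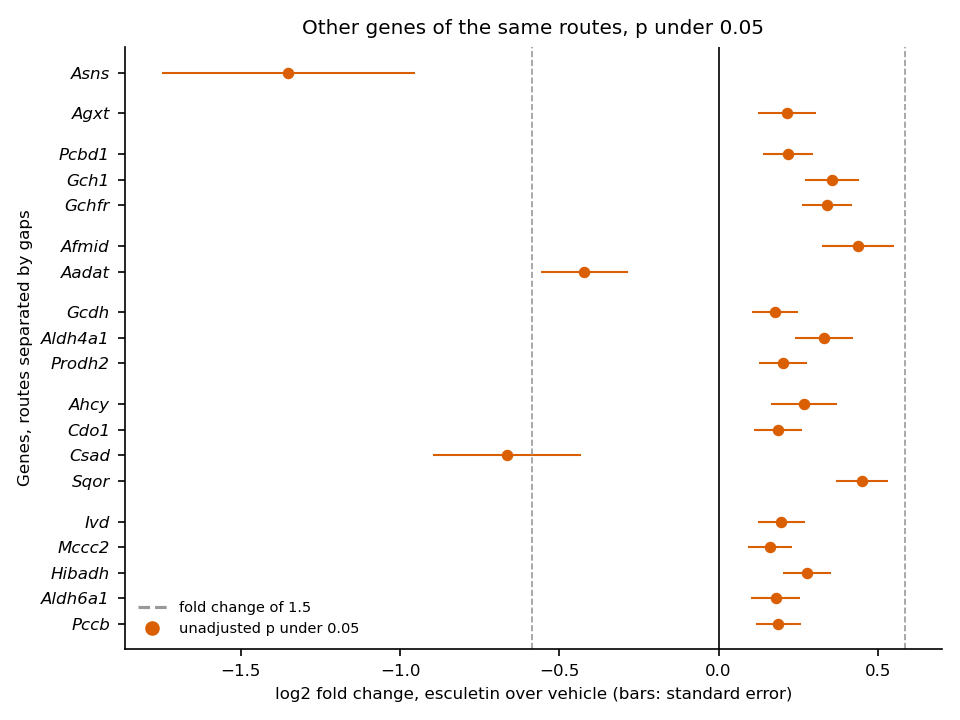
Log2 fold change, esculetin over vehicle, with its standard error for the 19 other genes of the same routes that had an unadjusted p under 0.05, grouped by route on the vertical axis. The 16 points to the right of 0 lie inside the dashed line at a fold change of 1.5, and Asns and Csad lie beyond it on the left.

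Zonal markers were read beside these values, since the urea cycle and several of the routes are periportal. Of 9 periportal markers outside the 39 genes, 6 had a fold above 1, and Pigr was higher at an unadjusted p under 0.05 (1.26-fold), a rule that 6.53% of all genes tested passed upward. Their summed level was 9543 to 12214 CPM in the vehicle libraries and 11053 to 11359 CPM in the esculetin libraries. Of 9 pericentral markers, 6 had a fold below 1. Axin2 (0.548-fold) and Lgr5 (0.717-fold) were lower at an unadjusted p under 0.05, where 5.32% of all genes tested were lower, and Axin2 also passed the fold threshold of 1.5. Axin2 averaged 4.39 CPM and Lgr5 5.59 CPM in the vehicle libraries, beside 7416 CPM for Cyp2e1, so the sum of this list says little about them. The summed level was 9256 to 10275 CPM in the vehicle libraries and 9999 to 11558 CPM in the esculetin libraries. Both sums overlapped between the groups. Their part in the differences described above was not tested.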

How the data were processed

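Livers of 6 mice per group were sequenced in 3 vehicle and 3 esculetin libraries of 2 mice each. The authors prepared libraries with a NEBNext Ultra RNA kit, aligned paired-end reads to GRCm39 with HISAT2 2.2.1 and counted them per gene with featureCounts, as the paper and the submitters' processing notes state, and deposited whole-number counts without normalization. The annotation release, the strand setting and the treatment of reads shared between genes are not given in the sources used here. Values of overlapping or related genes are therefore uncertain, and 13 of the 39 genes share exon bases with another gene.

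Libraries were grouped by their annotations. Gene symbols, coordinates and promoter positions come from GENCODE (GRCm39), where 54749 of 55357 identifiers were found. Genes were filtered with filterByExpr, scaled by TMM and tested with edgeR 4.0.16 (quasi-likelihood F test, R 4.3.3), over all 14433 genes tested, with Benjamini-Hochberg adjustment over all of them. The study's thresholds, p under 0.05 and a fold change over 1.5, were applied to the unadjusted p. The smallest total allowed a floor of 3 counts at 0.107 CPM. Replicates of a group differed by a chi-square of 24.2 or more per gene, so none was a copy of another. Log2 ratios of 7 gene pairs were compared by exact permutation, and 1 planned pair was left out because a gene of it had 3 or fewer counts in some libraries. The test was tested on simulated data with 200 changed genes.

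The numbers of the replicates mark different mice, and the correlations of same-numbered deviations, -0.069, -0.011 and 0.0027, did not pair the libraries. The alternatives were DESeq2 1.42.0, limma-voom and limma with trend (limma 3.58.1), scaling by DESeq2 size factors or by total counts, no filter or a minimum of 10 counts in all libraries, omission of 1 library at a time, a block on the replicate number, and other fold thresholds. Thinning to the smallest total, the set of genes with at least 25 CPM, lengths over all exons and the motif letters were chosen after seeing the data. The 39 genes and the other gene lists were chosen with earlier results of these data known. Values of every library are given for genes of the list with an unadjusted p under 0.05 or groups that did not overlap and for the urea cycle enzymes. The values of 1 gene of the list are not reported here. Library values of Gls2, Tat, Hgd, Asns, Csad, Cebpb, Foxo1 and G6pc1 were added after they were seen.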

Additional observations from a re-analysis of the deposited data

How the results depend on the processing

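In no alternative fit did any of the 39 genes pass both the unadjusted p threshold and a fold change over 1.5, and in none was a gene of the list lower at an unadjusted p under 0.05. The count of higher genes ran from 5 without vehicle replicate 2 (4.84% of all genes tested in that fit were higher) to 15 without vehicle replicate 1 (5.91%), with 7 without vehicle replicate 3 (6.28%), 6 without esculetin replicate 2 (5.36%), 8 without esculetin replicate 1 (4.93%) and 11 without esculetin replicate 3 (6.37%). It was 15 with no filter (5.28%) and 9 with total counts (5.32%). DESeq2 gave 193 genes with an adjusted p under 0.05, 2 of them in the list (Aass and Got1). With no filter these numbers were 477 and 4 (Aass, Got1, Gpt and Mat1a), and 776 genes passed both thresholds. Leaving out 1 library gave 2 to 45 genes with an adjusted p under 0.05. With no fold threshold 1711 genes and 11 genes of the list were called, and with a fold over 2 there were 217 genes and 0 of the list. With the replicate number as a block, 15 genes had an adjusted p under 0.05 and 9 of the list were higher at an unadjusted p under 0.05 (5.72% of all genes), without Gstz1 and Gnmt. The libraries share only a number, so this fit is not a paired one. The cause of these shifts was not tested. Directions that turned were all within the spread between libraries. With no filter, the log2 fold change was 0.0073 for Slc25a13, 0.0053 for Glud1 and 0.0029 for Hal. When 1 library was left out, it ran from -0.017 to 0.13 for Nags, -0.055 to 0.056 for Slc25a13, -0.044 to 0.034 for Glud1, -0.19 to 0.015 for Sds, -0.10 to 0.094 for Hal, -0.11 to 0.028 for Ftcd, -0.067 to 0.17 for Tat, -0.016 to 0.12 for Kmo, -0.25 to 0.038 for Gldc, -0.16 to 0.054 for Cbs, -0.089 to 0.18 for Cth and -0.17 to 0.0026 for Bckdha. The difference in log2 ratio ran from -0.0031 to 0.13 for Gpt to Gpt2, -0.23 to 0.075 for Slc25a13 to Slc25a12 and -0.43 to 0.079 for Bckdk to Bckdha. Thinning every library to the smallest total left 11 genes of the list higher. With 3 pooled libraries a group and standard errors near 0.093 on the log2 scale, folds as small as most of these are near the limit of what could be told from 1.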

Other observations

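Of 18 regulators and target genes of glucagon, insulin and glucocorticoid action that are known to bear on these routes, 3 were higher and 3 lower at an unadjusted p under 0.05, where 6.53% of all genes tested were higher and 5.32% lower. Cebpb, a C/EBP factor of the fasted liver, had 24.9, 35.6 and 30.2 CPM with vehicle and 53.7, 43.4 and 40.3 CPM with esculetin. Its groups did not overlap, and it was 1.51-fold (95% confidence interval 1.21 to 1.89, log2 standard error 0.14, unadjusted p = 0.00211, edgeR adjusted p = 0.175). Foxo1, a factor that insulin holds outside the nucleus, had 46.9, 41.3 and 56.3 CPM with vehicle and 71.7, 68.0 and 68.0 CPM with esculetin, also without overlap, and was 1.44-fold (95% confidence interval 1.22 to 1.70, log2 standard error 0.11, unadjusted p = 0.000733, edgeR adjusted p = 0.136). Cebpd was 1.54-fold (1.03 to 2.30), with overlap, and its unadjusted p was under 0.05 in 3 of the 6 fits that each left out 1 library.

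On the lower side, G6pc1, the catalytic subunit of glucose-6-phosphatase, had 923, 599 and 478 CPM with vehicle and 256, 437 and 362 CPM with esculetin and was 0.527-fold (95% confidence interval 0.362 to 0.767, log2 standard error 0.24, unadjusted p = 0.00357, edgeR adjusted p = 0.204). Sik1, a kinase induced by cAMP, was 0.350-fold (0.199 to 0.615), with overlap, and the glucocorticoid receptor gene Nr3c1 was 0.887-fold (0.790 to 0.996), a difference with an unadjusted p under 0.05 in 1 of those 6 fits. Pck1, the gluconeogenic carboxykinase, had an unadjusted p of 0.150 in edgeR's quasi-likelihood test (adjusted p = 0.582, Benjamini-Hochberg adjustment) at 1.09-fold (0.964 to 1.23). None of the 18 had an adjusted p under 0.05 in edgeR's fit of all 6 libraries. Without vehicle replicate 3, the edgeR adjusted p of Sik1 was 0.0496. A relation between these genes and the 39 was not tested.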
